A study of Mus musculus with 8 samples.

Results

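The 38 genes described here were listed as enzymes and carriers of mitochondrial fatty acid oxidation, although some, such as Echdc1, have another role (below). They were chosen by symbol, from a list that covers the activation of fatty acids, their import on carnitine, the cycle of beta oxidation with its electron acceptors, the removal of double bonds, thioesterases and the use of propionate. All 38 symbols were found in both assays, among 24079 symbols that the assays share. Livers came from C57BL/6 mice that were 8 weeks old at the start and then received feed in which fat supplied 45% of the energy, either alone (HF group) or together with betaine at 2% (w/v) in the drinking water (HB group). Both groups thus shared the high-fat diet, and the mice are labelled as post natal week 25. Mice on standard chow were not analysed here. Polyadenylated mRNA was measured by RNA-seq, and ribosome-protected fragments (footprints, the pieces of mRNA shielded from RNase by a ribosome) by Ribo-seq, with 2 libraries per group in each assay. The paper describes 2 mice per group as biological repeats, whereas the labels speak of independent experiments and of pooling equal amounts of RNA from each preparation. Where pooling came before the libraries were split, the p-values below would measure technical spread. In bulk liver, fewer cells of a type and less RNA per cell cannot be told apart.

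Fatty acids are burned in the mitochondrial matrix. An acyl-CoA synthetase activates the fatty acid, carnitine palmitoyltransferases and a carrier move long chains across the inner membrane, and each turn of the cycle then removes an acetyl-CoA by dehydrogenation, hydration, a further dehydrogenation and thiolysis. Different enzymes serve long, medium and short chains, electrons leave through the electron transfer flavoprotein, and chains with an odd number of carbons end as propionyl-CoA, which is carboxylated. The liver uses the pathway during fasting to supply energy and ketone bodies, and betaine, a methyl donor, was given in this study for its effect on liver fat.

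The mRNA libraries held 11661207 and 11824128 reads in the HF group and 18082686 and 22543471 in the HB group, as recovered from the steps of 1 read between low values. The footprint libraries were far shallower, with 387980 and 1056546 reads in the HF group and 141890 and 257086 in the HB group. A member had a median of 1146 to 5469 mRNA reads in a library but only 19 to 165.5 footprint reads. The HB libraries were the deeper ones in mRNA and the HF libraries in footprints, so depth and betaine cannot be told apart in either assay. The hepatocyte markers Alb, Apoa1, Ttr, Tat, Cps1 and Hnf4a summed to 42870 and 43900 RPKM in the HF mRNA libraries and to 47720 and 46180 in the HB libraries, and 0 of these 6 genes passed the test. Of the 4 adipocyte markers, which summed to at most 0.718 RPKM in any mRNA library, none had a footprint. The 5 markers of blood cells summed to 595.3 and 454.0 RPKM in the HF mRNA libraries and to 462.3 and 1566 RPKM in HB1 and HB2. In footprints they summed to 721.6 and 397.6 RPKM in HF1 and HF2 and to 1593 and 294.3 RPKM in HB1 and HB2, so that the library with the highest sum was HB2 in mRNA and HB1 in footprints. In mRNA, Alas2 was higher and Ptprc lower in HB. The 6 stellate cell markers summed to 31.9 and 30.9 RPKM in the HF mRNA and to 70.1 and 40.6 RPKM in the HB mRNA with none called. The 6 Kupffer cell markers summed to 98.5 and 104.8 RPKM in the HF mRNA and to 96.7 and 86.5 RPKM in the HB mRNA, with Marco alone called, as higher. The 5 endothelial markers summed to 54.4 and 63.5 RPKM in the HF mRNA and to 52.4 and 61.4 RPKM in the HB mRNA, with Stab2 alone called, as lower. The part of these cells in the results below was not tested.

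Levels were given as RPKM (reads per kilobase of transcript, scaled to the reads of the library), which allows genes to be compared per length. In the HF mRNA the highest member was Echdc2, a protein with an enoyl-CoA hydratase domain, at 968 ± 187 RPKM (SD, n = 2), ahead of Etfb (616 ± 52), a subunit of the electron transfer flavoprotein, Acsl1 (448 ± 179), the main long-chain acyl-CoA synthetase of liver, and Acaa2 (294 ± 35), the thiolase of medium-chain 3-oxoacyl-CoA. In the HB mRNA the order was Acaa2 (793 ± 9.0), Etfb (539 ± 169.5), Hsd17b10 (353 ± 106) and Acsl1 (294 ± 21). In the HF order the libraries of neighbours did not overlap, although the lower Acsl1 library (322 RPKM) lay close to the higher Acaa2 library (319 RPKM). In the HB order Etfb and Hsd17b10 overlapped, as did Hsd17b10 and Acsl1. In footprints Acaa2 was the highest member in both groups, at 573 ± 8.6 and 410.4 ± 69 RPKM, followed by Acsl1 at 444 ± 16 and 285 ± 75 and by Hadh at 279 ± 17 and 252 ± 56. The median member stood at 45.6 RPKM in the HF mRNA and at 94.7 RPKM in the HB mRNA, whereas the medians of all tested genes were 8.18 and 6.59 RPKM. In footprints the median member stood at 72.5 and 69.4 RPKM. Acsm2 was at or below 0.0339 RPKM in the mRNA libraries and was left out of the tests, which required a mean of at least 1 RPKM over the 4 libraries of an assay. Cpt1b passed this limit in mRNA and missed it in footprints, so that 37 members were tested in mRNA and 36 in footprints.

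The first comparison asks which steps of the pathway differ in mRNA when betaine is given on the high-fat diet. Between HB and HF, 14 of the 37 tested members rose and 2 fell at an adjusted p under 0.05 (limma on log2(RPKM + 1), Benjamini-Hochberg over all 10687 tested genes). Over all tested genes, 846 were higher in HB (7.92%) and 2044 were lower (19.1%). The median log2 difference was 0.42 over the members and -0.19 over all tested genes, and 32 members lay above the median of all genes. When the libraries were brought to a common median, the median of all genes moved to 0.08 and the split of all calls moved from 846 higher and 2044 lower (29.3% higher) to 1519 higher and 1039 lower (59.4% higher), while 15 members were higher and 2 lower. Without the filter on low values 24535 genes were tested, of which 7 were called higher and 26 lower, and no member was called. Under the thresholds of the study, a log2 difference beyond 1 with an unadjusted p under 0.001, 8 members were higher and 2 lower, against 2.3% and 6.56% of all tested genes. The HB libraries lay above both HF libraries in 23 members and below both in 4, compared with 24.8% and 43.3% of all tested genes.

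**Figure D1:**
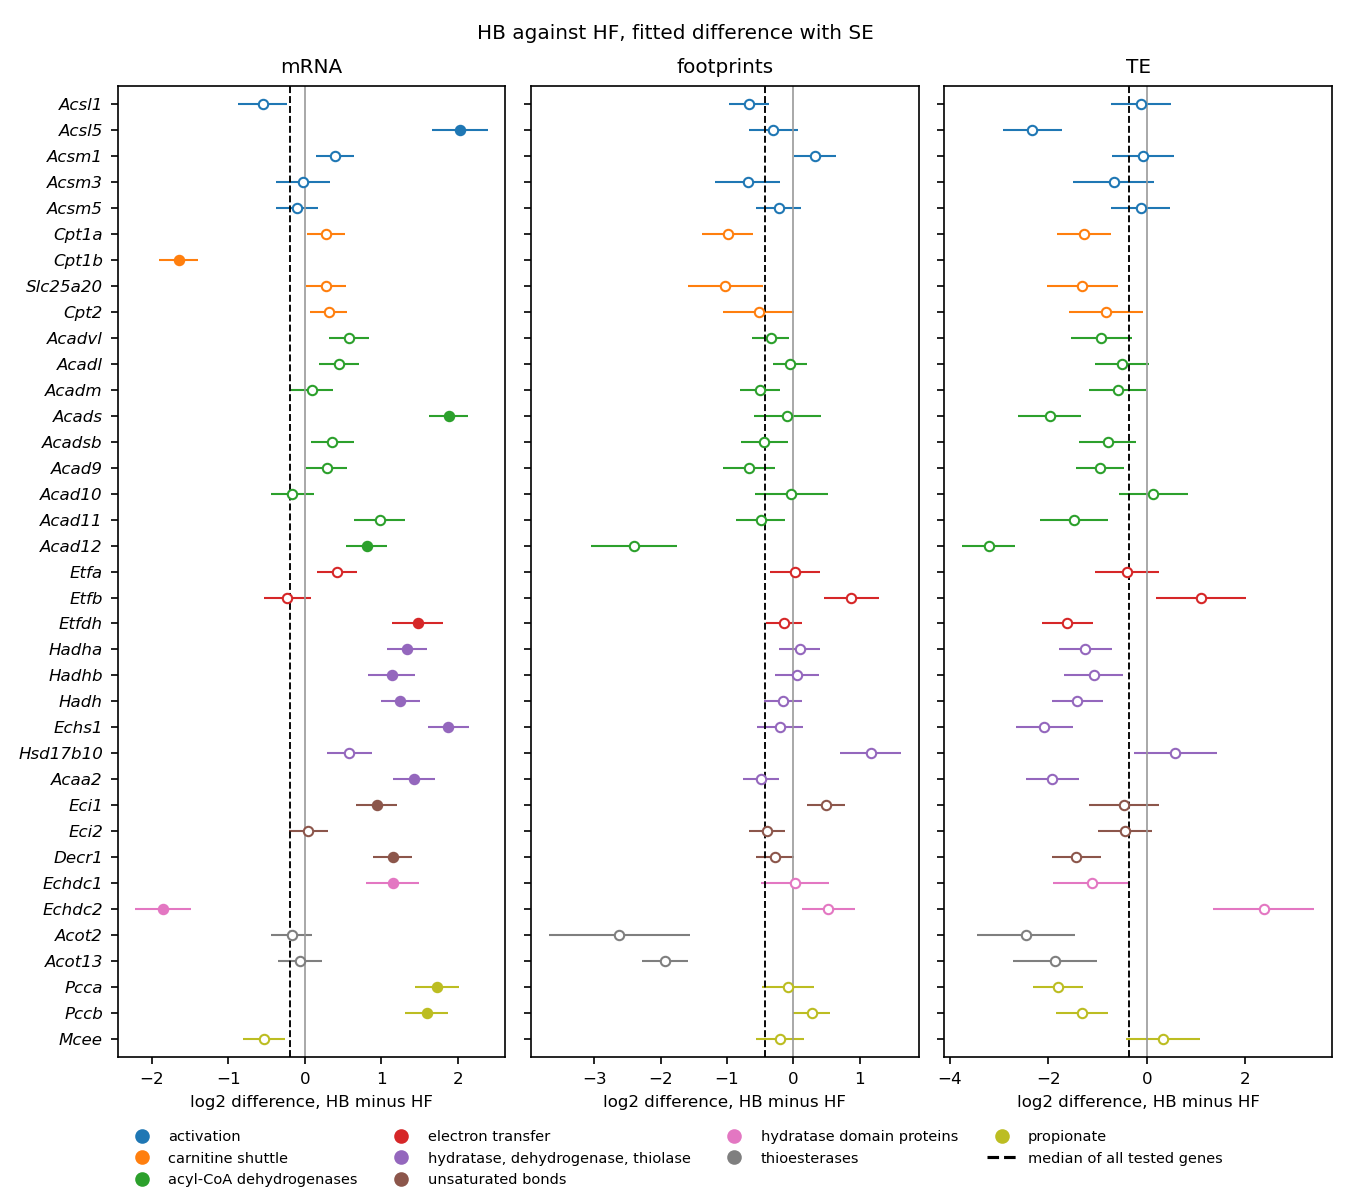
Log2 difference of HB minus HF with its standard error for the 37 members tested in mRNA (left), and for the 36 tested in footprints (middle) and in translation efficiency, TE (right). Colours mark the step, filled points have an adjusted p under 0.05, and the dashed line is the median of all tested genes, so that 16 filled points stand in the mRNA panel and none in the other panels.

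The steps differed in how many members were called, beside 7.92% higher and 19.1% lower over all tested genes. Among the 6 genes of the hydratase, hydroxyacyl dehydrogenase and thiolase steps 5 rose, with a median log2 difference of 1.29. The remaining gene Hsd17b10 had 0.58, which was 0.89 without HB replicate 1 and 0.27 without HB replicate 2. Of the 3 propionate genes 2 rose, and of the 3 genes for unsaturated chains 2 rose. Of the 9 acyl-CoA dehydrogenases 2 rose, with a median of 0.45 over the group. In the electron transfer group 1 of 3 rose, among the tested activating enzymes 1 of 5 rose, and among the 2 hydratase domain proteins 1 rose and 1 fell. No member of the carnitine shuttle rose, 1 of its 4 fell, and neither of the 2 thioesterases was called.

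Echs1, the short-chain enoyl-CoA hydratase (chr7:140105710-140116476, GRCm38), had 37.3 and 44.6 RPKM in the HF mRNA libraries and 180 and 130 RPKM in the HB libraries. Both HB libraries were above both HF libraries, and Echs1 rose 3.78-fold by group means, a log2 difference of 1.88 (SE 0.27, adjusted p = 0.00525). Hadh, the dehydrogenase of medium- and short-chain hydroxyacyl-CoA (chr3:131233419-131272101), had 95.6 and 97.9 RPKM in HF and 252 and 212.5 RPKM in HB. Its HF libraries nearly coincided, and it rose 2.40-fold (log2 difference 1.25, SE 0.26, adjusted p = 0.00969). Without HF replicate 1 neither Hadh nor the next gene, Acaa2, was called. Acaa2 had 270 and 319 RPKM in HF and 799 and 787 RPKM in HB, a rise of 2.70-fold (log2 difference 1.43, SE 0.27, adjusted p = 0.00785).

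Hadha and Hadhb encode the alpha and beta subunits of the trifunctional protein, which carries the hydratase, dehydrogenase and thiolase of long chains. The genes stand head to head on chromosome 5 (Hadha at chr5:30118304-30155162 on the minus strand, Hadhb at chr5:30155248-30184593 on the plus strand), with 85 bases between them. Hadha had 40.5 and 33.7 RPKM in the HF mRNA and 106 and 84.9 RPKM in the HB mRNA, and rose 2.58-fold (log2 difference 1.34, SE 0.26, adjusted p = 0.00833). Hadhb had 44.8 and 35.1 RPKM in HF and 115 and 67.5 RPKM in HB, and rose 2.29-fold (log2 difference 1.13, SE 0.31, adjusted p = 0.0255). The HB libraries of Hadhb spread wider than those of Hadha, and without HF replicate 2 or HB replicate 1 Hadhb was no longer called. The ratio of Hadha to Hadhb in mRNA was 0.902, 0.962 and 0.922 in HF1, HF2 and HB1 and 1.26 in HB2, the library in which Hadha was the higher of the subunits. In footprints the same ratio was 1.35 and 1.04 in HF and 1.07 and 1.38 in HB.

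Pcca and Pccb, the subunits of propionyl-CoA carboxylase, rose by similar factors. Pcca had 7.78 and 8.22 RPKM in HF and 36.5 and 22.6 RPKM in HB, 3.69-fold higher (log2 difference 1.73, SE 0.28, adjusted p = 0.00564). Pccb had 21.2 RPKM in both HF libraries and 82.7 and 52.5 RPKM in HB, 3.19-fold higher (log2 difference 1.59, SE 0.28, adjusted p = 0.00663). The ratio of Pcca to Pccb was 0.367 and 0.388 in the HF mRNA and 0.442 and 0.429 in the HB mRNA. Mcee, the epimerase that acts next on methylmalonyl-CoA, had 125 and 118 RPKM in HF and 69.3 and 101 RPKM in HB. Its HB libraries lay below its HF libraries, with a log2 difference of -0.53 (SE 0.28, adjusted p = 0.174). That difference was -0.27 without HB replicate 1 and -0.80 without HB replicate 2.

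The acyl-CoA dehydrogenases carry out the first oxidation of each cycle, and Acads and Acad12 were the members called among them. Acads (chr5:115110299-115119346), the short-chain enzyme, had 25.2 and 30.6 RPKM in HF and 106.5 and 103 RPKM in HB. The libraries of a group lay close together, and Acads rose 3.76-fold (log2 difference 1.88, SE 0.25, adjusted p = 0.00523). Acadvl, for very long chains, had 180 and 152 RPKM in HF and 245 and 248 RPKM in HB (log2 difference 0.58, SE 0.26, adjusted p = 0.127). Acadl, for long chains, had 108 and 93.1 RPKM in HF and 148 and 127 RPKM in HB (log2 difference 0.45, SE 0.26, adjusted p = 0.217). Both had HB libraries above their HF libraries without passing the test. Acadm, for medium chains, overlapped between groups at 202 and 159 RPKM in HF and 215 and 170 RPKM in HB, and the 95% confidence interval of its log2 difference of 0.09 ran from -0.52 to 0.71.

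Of the remaining dehydrogenases, Acad12 had a mean of 0.68 RPKM in the HF mRNA and 1.95 RPKM in the HB mRNA, so it passed the filter only through HB. It rose from 0.433 and 0.926 RPKM in HF to 2.41 and 1.49 RPKM in HB. The log2 difference was 0.81 on the log2(RPKM + 1) scale, which understates the change of low values (SE 0.27, adjusted p = 0.0473). That call was lost in 7 of the 11 alternatives that could be run for it, those without HF replicate 1 and without HB replicate 1 among them. Acad11, with 36.6 and 37.6 RPKM in HF and 105 and 52.3 RPKM in HB, just missed the threshold (log2 difference 0.98, SE 0.33, adjusted p = 0.0531) and passed it in 4 of 12 alternatives, such as a common median. Its log2 difference was 0.48 without HB replicate 1 and 1.48 without HB replicate 2. Acadsb, for branched short chains, Acad9, which also serves the assembly of respiratory complex I, and Acad10 had overlapping groups and log2 differences of 0.36, 0.29 and -0.16. Without HB replicate 1 that of Acadsb was 0.053 and that of Acad9 0.057, and without HB replicate 2 they were 0.67 and 0.52.

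The electrons of these dehydrogenases pass to the electron transfer flavoprotein and from there, through Etfdh, to ubiquinone. Etfdh had 32.5 and 23.1 RPKM in HF and 108 and 56.2 RPKM in HB, and rose 2.95-fold (log2 difference 1.47, SE 0.34, adjusted p = 0.0139). Etfa and Etfb, the subunits of the flavoprotein itself, were not called, with log2 differences of 0.42 (SE 0.26, adjusted p = 0.256) and -0.23 (SE 0.31, adjusted p = 0.609). The ratio of Etfa to Etfb in mRNA was 0.306 and 0.333 in HF, 0.697 in HB1 and 0.360 in HB2, so that HB1 alone stood apart.

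Double bonds in unsaturated fatty acids have to be moved or reduced before the cycle can go on. Decr1, the mitochondrial dienoyl-CoA reductase, had 33.0 and 35.1 RPKM in HF and 84.8 and 69.5 RPKM in HB, and rose 2.26-fold (log2 difference 1.15, SE 0.25, adjusted p = 0.0117). Eci1, an enoyl-CoA isomerase, had 135 and 151 RPKM in HF and 243 and 311 RPKM in HB, and rose 1.94-fold (log2 difference 0.94, SE 0.27, adjusted p = 0.0298). Without HF replicate 1 neither was called, and Eci1 was not called without HF replicate 2. Eci2, a further isomerase that is also found in peroxisomes, was nearly level at 183 and 172 RPKM in HF and 182 and 185 RPKM in HB. The 95% confidence interval of its log2 difference ran from -0.52 to 0.61.

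In the carnitine shuttle, which brings long chains to the enzymes above, no member was called higher. Cpt1a, the liver form of the outer-membrane transferase, had 76.7 and 77.6 RPKM in HF and 96.7 and 91.0 RPKM in HB (log2 difference 0.28, SE 0.25, adjusted p = 0.419). Slc25a20, the carnitine-acylcarnitine carrier, and Cpt2, the inner transferase, had log2 differences of 0.28 (adjusted p = 0.445) and 0.31 (adjusted p = 0.372). That of Slc25a20 was 0.49 without HF replicate 1 and 0.079 without HF replicate 2. For each of these 3 genes the HB libraries lay above the HF libraries, and the upper ends of the 95% confidence intervals were 0.83, 0.87 and 0.87.

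Cpt1b, the transferase form of muscle and brown fat, went the other way. It had 12.4 and 10.6 RPKM in the HF mRNA and 2.61 and 3.42 RPKM in the HB mRNA, and fell by 1.65 on the log2 scale (SE 0.26, adjusted p = 0.00526), to 0.261 of its HF mean. Only 2 and 1 footprint reads fell on Cpt1b in the HF libraries and 0 in the HB libraries, which is not above the floor of 3 reads per library. The muscle markers Ckm, Myh4 and Mb were at 0 in all 4 mRNA libraries, and the 5 muscle markers together summed to at most 0.139 RPKM of mRNA. In footprints these markers summed to 34.4 and 23.5 RPKM in HF and 29.7 and 8.97 RPKM in HB, all on Acta1, with the other 4 at 0. The span of a further annotated protein-coding gene, Gm44502, overlaps Cpt1b exons on the same strand. Whether exons of the pair overlap was not examined, and reads from shared exon bases could not be told apart in these values.

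Among the activating enzymes, Acsl5, a long-chain acyl-CoA synthetase, had 29.9 and 21.4 RPKM in HF and 157 and 71.6 RPKM in HB. The HB libraries differed between themselves but both were above HF, and Acsl5 rose 4.45-fold (log2 difference 2.02, SE 0.37, adjusted p = 0.00685). Without HB replicate 1 the log2 difference of Acsl5 was 1.46, still called. Acsl1 had 574 and 322 RPKM in HF and 309 and 279 RPKM in HB, with a log2 difference of -0.55 (SE 0.32, adjusted p = 0.23) that was -0.13 without HF replicate 1 and -0.97 without HF replicate 2. Thus the synthetase with the higher level was not called and the lower one rose, although the HB mean of Acsl1 (294 RPKM) remained above that of Acsl5 (114 RPKM). The medium-chain synthetases Acsm1, Acsm3 and Acsm5 had log2 differences of 0.40, -0.02 and -0.10, and none was called.

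The proteins with a hydratase domain moved in opposite directions. Echdc1, an ethylmalonyl-CoA decarboxylase that removes side products of fatty acid synthesis, had 5.80 and 5.44 RPKM in HF and 20.4 and 9.04 RPKM in HB, and rose with a log2 difference of 1.15 (SE 0.35, adjusted p = 0.0363). Without either HF library or without HB replicate 1 it was not called, and in the last case its log2 difference was 0.60. Echdc2 (chr4:108165437-108179308) had 1100 and 836 RPKM in HF and 187 and 375 RPKM in HB, and fell by 1.85 on the log2 scale (SE 0.36, adjusted p = 0.00847). The sum of all 38 members was 4962 and 4345 RPKM in the HF mRNA and 5427 and 5529 RPKM in the HB mRNA, so that the sum was higher in HB while its highest HF member fell. The thioesterases Acot2 and Acot13, which release the fatty acid from its CoA, had overlapping groups and log2 differences of -0.17 and -0.06.

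**Figure D2:**
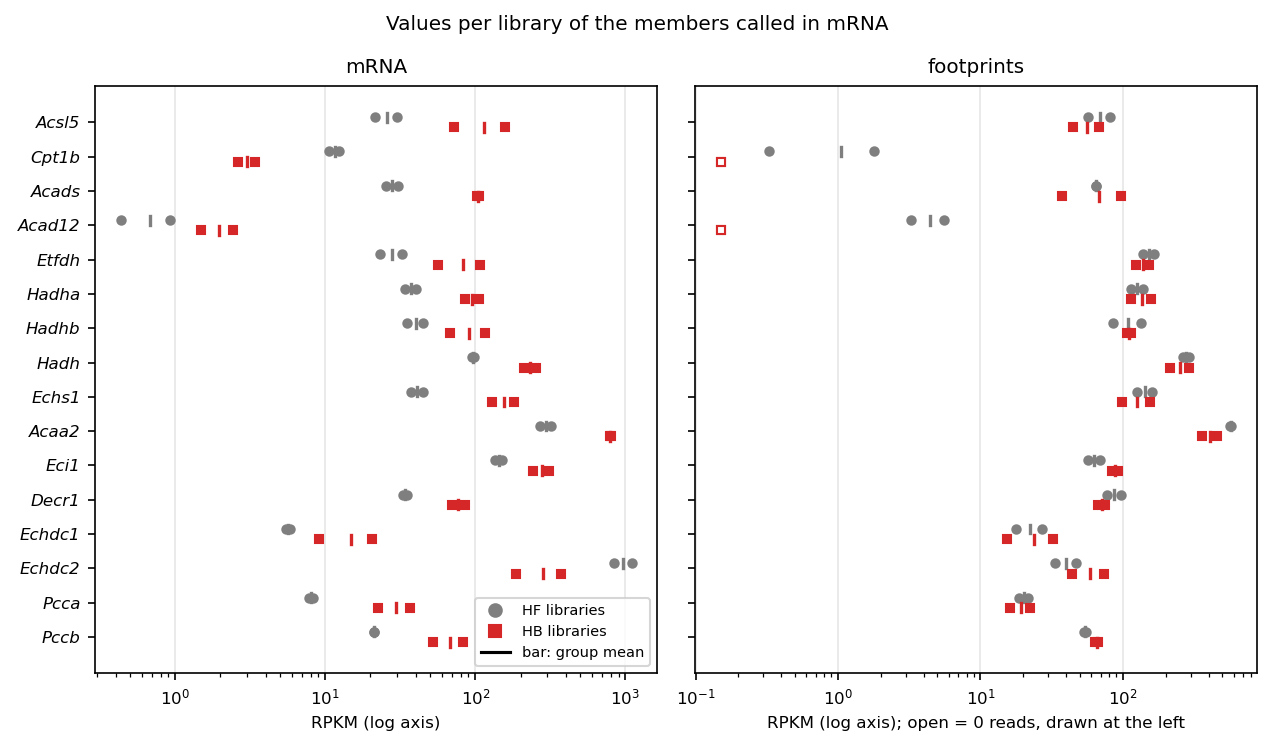
RPKM in each library on a log axis for the 16 members called in mRNA, in mRNA (left) and in footprints (right), with HF libraries as grey circles, HB libraries as red squares and the mean of each group as a bar. In mRNA the groups are apart for every gene shown, with Cpt1b and Echdc2 lower in HB, whereas in footprints the groups mostly overlap, and open squares mark 0 reads of Cpt1b and Acad12 in both HB libraries.

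By the chain length that the enzyme prefers, 3 of 11 tested long-chain members rose and 1 fell (median log2 difference 0.31), 1 of 5 tested medium-chain members rose (median 0.09), and 3 of 5 short-chain members rose (median 1.25). Over all tested genes, 7.92% were higher and 19.1% lower, with a median of -0.19. In the short-chain group the called genes were Acads, Hadh and Echs1, and the others were Acadsb and Hsd17b10. The long-chain rises were those of Acsl5, Hadha and Hadhb. These groups hold few genes, and no test of the difference between them was made.

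The promoters of 4 called members are shown because these genes moved far in mRNA in either direction, have a single start in the RefSeq table, and have no annotated exon in the 250 bases before that start. Sequences are from RefSeq (GRCm38.p6) and run in the direction of the gene up to the base before its RefSeq start: Acads at chr5:115119347-115119596 on the minus strand, Hadh at chr3:131272102-131272351 on the minus strand, Acsl5 at chr19:55253119-55253368 on the plus strand, and Echdc2 at chr4:108165187-108165436 on the plus strand. Capitals mark, on either strand, GGGCGG (the GC box bound by Sp1), CCAAT (bound by NF-Y), GCGCATGCG (a core of the NRF1 site), TCAAGGTCA (bound by estrogen-related receptors) or AGGTCANAGGTCA (the repeat bound by PPAR with RXR), and the last motif holds the letters AGGTCA that end the one before it.
Acads: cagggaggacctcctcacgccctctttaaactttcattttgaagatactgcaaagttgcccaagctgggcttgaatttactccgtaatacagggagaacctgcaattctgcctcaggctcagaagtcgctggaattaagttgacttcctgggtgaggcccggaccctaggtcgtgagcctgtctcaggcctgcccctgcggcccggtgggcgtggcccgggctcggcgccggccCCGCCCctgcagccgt
Hadh: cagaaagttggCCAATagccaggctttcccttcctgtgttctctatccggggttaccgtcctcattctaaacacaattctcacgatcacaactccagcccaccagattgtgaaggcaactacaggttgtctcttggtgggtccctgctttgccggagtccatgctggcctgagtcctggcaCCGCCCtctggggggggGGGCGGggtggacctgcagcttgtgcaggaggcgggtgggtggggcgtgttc
Acsl5: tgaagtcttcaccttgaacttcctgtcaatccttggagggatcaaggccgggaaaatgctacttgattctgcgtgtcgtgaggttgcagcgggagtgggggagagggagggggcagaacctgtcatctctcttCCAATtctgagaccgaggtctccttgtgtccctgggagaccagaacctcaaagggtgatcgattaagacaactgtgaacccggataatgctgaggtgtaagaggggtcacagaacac
Echdc2: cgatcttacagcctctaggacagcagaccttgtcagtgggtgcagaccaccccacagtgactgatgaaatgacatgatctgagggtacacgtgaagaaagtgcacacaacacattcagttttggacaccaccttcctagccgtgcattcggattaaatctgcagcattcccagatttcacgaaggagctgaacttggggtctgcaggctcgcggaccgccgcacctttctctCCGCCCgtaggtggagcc
Acads and Echdc2, which moved in opposite directions, each held 1 GC box, at positions -16 and -18 from the start. Hadh held 2 GC boxes and 1 CCAAT box, and Acsl5 1 CCAAT box. The GENCODE annotation starts Acsl5 upstream, at chr19:55251938, so by that annotation its window lies inside the gene. Of the 33 members with an entry in the table, 17 (51.5%) held a GC box, against 32.74% of all 32851 promoters, and 16 (48.5%) held a CCAAT box, against 33.85%. The NRF1 core was found in 4 of 33 (Etfdh, Acadm, Acad12 and Pccb) and in 1.45% of all promoters. Neither TCAAGGTCA nor AGGTCANAGGTCA was found in a member, and these were in 0.39% and 0.03% of all promoters. GC content ran from 36.0% to 79.6% over the member windows, with a median of 52.4% over all promoters, and its part in these shares was not tested. The windows of Hadha and Hadhb, which both held a GC box, overlap and were counted separately. Members had 1 entry per gene, whereas the set of all promoters kept every entry. A match describes the letters of this window only.

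The second comparison asks whether the footprints, a measure of mRNA on ribosomes, differ between HB and HF. None of the 36 tested members was called by limma at an adjusted p under 0.05, nor was any of the 11190 tested genes (0.0% in either direction). At an unadjusted p under 0.05, 0 members were higher and 3 lower (Cpt1a, Acad12 and Acot13), against 1.72% and 8.31% of all tested genes, and voom on the recovered reads called no member, with 51 genes higher and 25 lower of 11189. The median log2 difference was -0.21 over the members and -0.43 over all tested genes, with 10 members above 0 and 26 below. With the libraries at a common median, the median of the members was 0.11, so its sign rests on the scaling. The HB libraries lay above both HF libraries in 4 members (Eci1, Etfb, Hsd17b10 and Pccb) and below both in 15, compared with 9.07% and 33.2% of all tested genes.

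The 14 members that rose in mRNA had a median footprint difference of -0.12. That median was 0.21 with the libraries at a common median and -0.98 at a common sum, so its sign rests on the scaling. Echs1 had 125 and 161 RPKM of footprints in HF and 98.4 and 155 RPKM in HB, overlapping ranges with a log2 difference of -0.20 and a 95% confidence interval from -1.10 to 0.69. Hadh had 267 and 291 RPKM in HF and 213 and 292 RPKM in HB (95% interval from -0.90 to 0.58). Acaa2 had 567 and 579 RPKM in HF and 459 and 362 RPKM in HB, with both HB libraries lower (log2 difference -0.49, 95% interval from -1.20 to 0.21).

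The subunits of the trifunctional protein and of propionyl-CoA carboxylase had footprint differences near 0. Hadha had 115 and 139 RPKM in HF and 115 and 158 RPKM in HB (95% interval from -0.69 to 0.88). Hadhb had 85.2 and 134 RPKM in HF and 107 and 115 RPKM in HB (95% interval from -0.79 to 0.91). Pccb had 55.2 and 53.0 RPKM in HF and 63.8 and 67.4 RPKM in HB, with both HB libraries slightly higher (log2 difference 0.27, 95% interval from -0.44 to 0.99). Pcca had 18.7 and 21.7 RPKM in HF and 22.3 and 16.1 RPKM in HB, which overlapped. Etfb had 96.9 and 120 RPKM in HF and 280 and 140 RPKM in HB (log2 difference 0.87, SE 0.41, adjusted p = 0.556), with both HB libraries higher. Etfa overlapped between groups (log2 difference 0.02), and the ratio of Etfa to Etfb in footprints was 1.598 and 1.691 in HF, 0.494 in HB1 and 1.68 in HB2. Hsd17b10, a short-chain hydroxyacyl dehydrogenase, had the highest footprint difference of the members, with 42.4 and 92.5 RPKM in HF and 162 and 124 RPKM in HB (log2 difference 1.16, SE 0.46, unadjusted p = 0.0521, limma adjusted p = 0.501). By reads alone the ratio of HB to HF was 2.02 for Etfb (exact 95% interval from 1.52 to 2.66) and 1.88 for Hsd17b10 (from 1.33 to 2.64), intervals that cover counting error only. For Acads the interval was wide, from -1.42 to 1.24, since HB1 had 97.8 RPKM and HB2 37.7 RPKM from 47 and 10 reads.

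In the carnitine shuttle the footprints of all 3 tested members were lower in the HB means. Cpt1a had 192 and 218 RPKM in HF and 75.1 and 139 RPKM in HB, from 320, 989, 83 and 85 reads (log2 difference -0.99, SE 0.38, unadjusted p = 0.0494, limma adjusted p = 0.497). Slc25a20 had 130 and 98.7 RPKM in HF and 93.6 and 32.3 RPKM in HB (log2 difference -1.03, SE 0.56, adjusted p = 0.599), with only 4 reads in HB2. Cpt2 overlapped between groups, at 47.2 and 65.7 RPKM in HF and 61.2 and 24.0 RPKM in HB (log2 difference -0.52, SE 0.53, adjusted p = 0.725). Acsl1, which feeds the shuttle, had 456 and 433 RPKM in HF and 232 and 338 RPKM in HB (log2 difference -0.66, SE 0.30, adjusted p = 0.546). In Cpt1a, Slc25a20 and Acsl1 each HB library lay below each HF library, and no adjusted test was passed.

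Under the thresholds of the study for footprints, a log2 difference beyond 1 with an unadjusted p under 0.05, 0 members were higher and 2 lower, against 1.58% and 7.86% of all tested genes. These were Acot13 and Acad12 (adjusted p = 0.493 for each), both with at most 3 HB reads in all. The fitted log2 difference of Acad12 was set by the pseudocount, with -2.40 at 1 and -5.45 at 0.1 RPKM. Acot13 had 12 and 31 reads in HF and 2 and 1 in HB, a ratio of HB to HF of 0.253 per read of the library, with an exact 95% interval from 0.0501 to 0.789 that covers counting error only. Acot2, with 14 and 35 reads in HF and 0 and 2 in HB, had a ratio of 0.148 (interval from 0.0174 to 0.563). Acad12 had 3 and 14 reads in HF and 0 in both HB libraries, so its footprints passed the filter, also for the ratio to mRNA below, only through HF. At 3 reads, the HB floors for Acad12 were 4.91 and 8.90 RPKM, above its HF mean of 4.42 RPKM, so neither HB library alone could show a fall. Over the group, 0 HB reads against 17 HF reads allowed a ratio of up to 0.877 (exact 95% interval, counting error only). Acad12 was called lower by the adjusted test without HF replicate 1 and without HF replicate 2, fits in which 700 and 699 of the 11190 genes were called lower. In all, 8 members had fewer than 100 footprint reads over the 4 libraries.

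**Figure D3:**
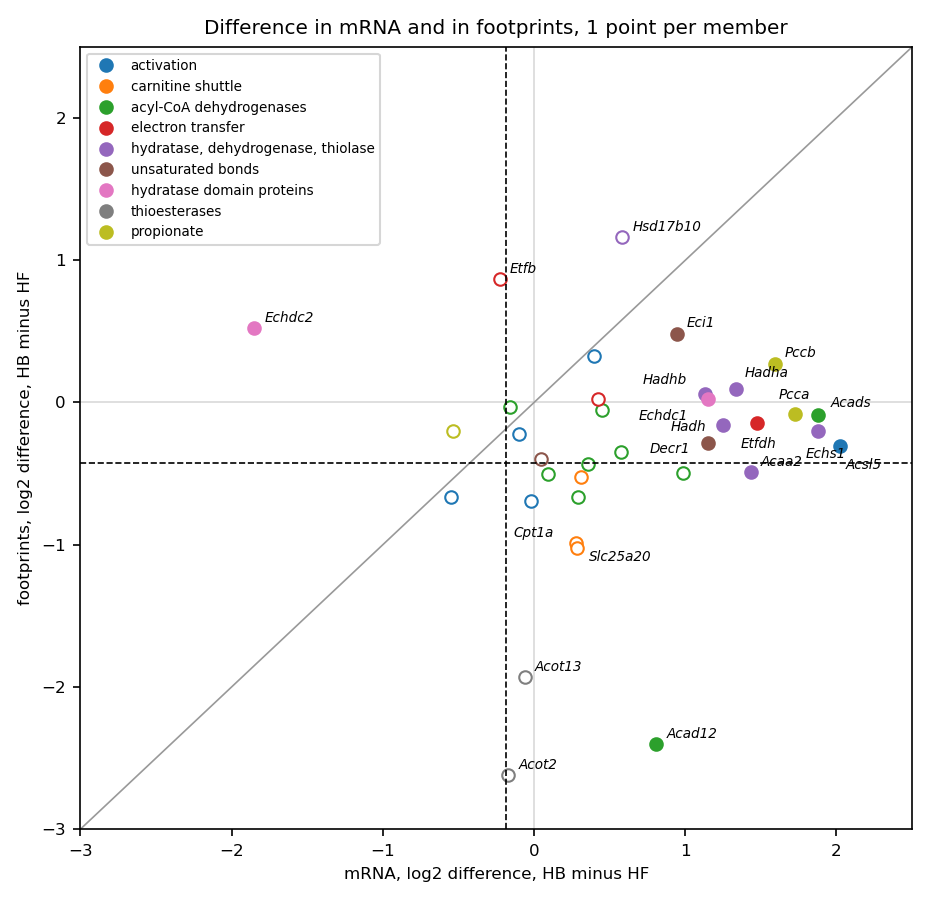
Log2 difference of HB minus HF in footprints (vertical) against that in mRNA (horizontal) for the 36 members tested in both, 1 point per gene, coloured by step and filled where the mRNA passed an adjusted p under 0.05. Dashed lines are the medians of all tested genes (-0.19 and -0.43) and the grey diagonal marks equal differences; most filled points lie to the right near a footprint difference of 0, with Echdc2 on the far left.

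The third comparison is of translation efficiency (TE), the footprint level divided by the mRNA level in the libraries with the same number. Which libraries of the 2 assays share an animal is not stated, so the numbers need not pair livers. The region over which the authors counted reads is not given in the sources used here, and the lengths implied by the values differ between assays for 13 members. These lengths affect the TE level of the genes but cancel in the comparison of HB with HF. The paper reports a smaller share of footprints on coding sequence without betaine than with it. The part of this in the comparison was not tested. In the HF group the median TE was 1.92 over the 36 members and 1.09 over all tested genes. In the HB group the medians were 0.789 and 0.899. The highest HF values were those of Acad12 (6.77), Etfdh (5.70), Acad11 (4.54) and Echdc1 (4.02), and the lowest were Echdc2 (0.0430), Etfb (0.178) and Hsd17b10 (0.294). The value of Acad12 rests on 3 and 14 footprint reads and 12 and 26 mRNA reads, so its rank is uncertain. Echdc2 thus had the highest mRNA and the lowest TE of the tested members in HF, and its TE was 0.216 in HB.

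No tested member was called in TE at an adjusted p under 0.05 in limma, and none of the 9455 tested genes was (0.0% in either direction). At an unadjusted p under 0.05, 0 members were higher and 11 lower, against 2.83% and 9.37% of all tested genes. In either direction, 7 members passed that p with the libraries at a common median and 22 at a common sum, beside 972 and 2604 of the 9455 genes. An interaction model over both kinds of library called 1 gene, which was no member. The median log2 difference was -1.01 over the members and -0.35 over all tested genes, and 31 members were below 0. In the 14 members that rose in mRNA the median was -1.52. These members were chosen by the mRNA that stands in the denominator, so this value is a description. In the 21 tested members not called in mRNA the median was -0.59.

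Under the thresholds of the study for TE, a log2 difference beyond 2 with an unadjusted p under 0.05, 0 members were higher and 4 lower, against 1.49% and 4.6% of all tested genes. Acsl5 had a TE of 1.92 and 3.80 in HF and 0.434 and 0.625 in HB (log2 difference -2.33, SE 0.60, adjusted p = 0.334). Echs1 had 3.36 and 3.62 in HF and 0.548 and 1.19 in HB (log2 difference -2.08, SE 0.57, adjusted p = 0.334). In both genes every HB ratio was below every HF ratio. The others were Acad12 (adjusted p = 0.328), with no HB footprint read, and Acot2 (adjusted p = 0.406), with 2. Their fitted TE differences moved with the pseudocount, from -3.21 at 1 RPKM to -6.88 at 0.1 RPKM for Acad12 and from -2.45 to -4.11 for Acot2. That of Acot2 was -1.045 without HB replicate 1 and -3.86 without HB replicate 2. Without HB replicate 1, 7 members were called lower, in a fit that called 1280 of the 9455 genes lower and 321 higher. Without HB replicate 2, 11 members were called lower, beside 748 genes lower and 294 higher, with Acsl5, Acad12, Echs1 and Pcca in both sets.

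Echdc2 had a TE of 0.0303 and 0.0557 in HF and 0.235 and 0.197 in HB, with a log2 difference of 2.38 that did not pass the test (SE 1.03, adjusted p = 0.424). Its footprints overlapped between groups, at 33.3 and 46.6 RPKM in HF and 44.0 and 74.0 RPKM in HB. Etfb had a TE of 0.148 and 0.208 in HF, 0.668 in HB1 and 0.213 in HB2, so that HB1 alone was apart (log2 difference 1.10, SE 0.92, adjusted p = 0.645). Across the 38 members, the rank correlation between the mRNA and footprint levels was 0.62 in the HF group and 0.81 in the HB group, as a description of genes that share the same libraries. The sum of the members' footprints was 3996 and 4502 RPKM in HF and 3522 and 3756 RPKM in HB.

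**Figure D4:**
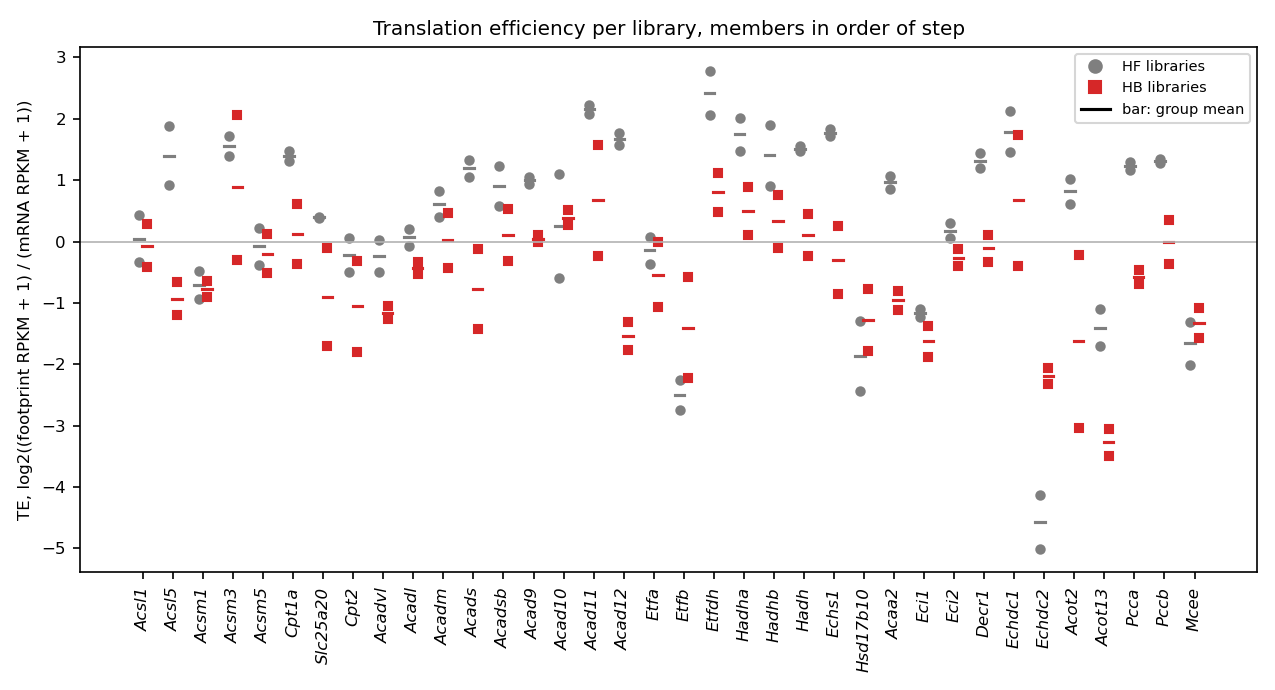
TE on the log2 scale in each pair of libraries with the same number, for the 36 tested members in order of step, with HF as grey circles, HB as red squares and bars at the group means. The HF bars from Etfdh to Acaa2 lie above 0 other than that of Hsd17b10, the HB bar is lower than the HF bar in 31 members, and Echdc2 is far below the others in HF.

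Other genes of the pathway came from a list of 32 symbols drawn up beside that of the members, in which Mut in mRNA and Mmut in footprints name the same gene, methylmalonyl-CoA mutase, so that it has no TE here. In mRNA 24 were tested, and 5 rose and 3 fell, against 7.92% higher and 19.1% lower over all tested genes. Their median log2 difference was 0.49, against -0.19 over all tested genes. Among genes of methylmalonyl-CoA and cobalamin metabolism, Mmadhc rose from 19.0 and 18.9 RPKM in HF to 55.9 and 46.2 RPKM in HB (log2 difference 1.38, SE 0.25, adjusted p = 0.00683), and Mmab, an adenosyltransferase for cobalamin, rose (1.20, adjusted p = 0.00983). Mmaa, which protects methylmalonyl-CoA mutase, fell by 1.02 (adjusted p = 0.0202). Mut itself (0.81, adjusted p = 0.191) and Mmachc (0.36, adjusted p = 0.315) were not called. Acsf3, which activates malonate in mitochondria, Acot7, a thioesterase, and Echdc3 also rose, with log2 differences of 1.10, 1.01 and 0.75. Slc22a5, the carnitine transporter of the plasma membrane, fell from 55.9 and 27.0 RPKM in HF to 9.20 and 14.6 RPKM in HB (log2 difference -1.66, SE 0.36, adjusted p = 0.0117), and Them4, a thioesterase, fell by 0.90. Acacb, whose product malonyl-CoA inhibits Cpt1a, had 12.8 and 3.30 RPKM in HF and 37.0 and 9.31 RPKM in HB and was not called (adjusted p = 0.131). None of these genes was called in footprints or TE.

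Transcript length went with the mRNA difference over all tested genes, with a median log2 difference of 0.08 in the shortest of 5 equal groups and -0.36 in the longest. The medians of the members over the same groups, from short to long, were 0.18 (8 genes), 0.45 (9), 0.05 (7), 1.15 (11) and -0.10 (2). The part of length in the differences was not tested. The span of another annotated gene, introns included, overlaps exons of 17 members, 7 of which were called in mRNA (Cpt1b, Acsl5, Hadha, Echs1, Echdc1, Etfdh and Pcca). Whether exons of the other genes overlap them was not examined. Since the library kit does not mark strand, reads from shared exon bases could not be told apart.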

How the data were processed

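RNA-seq (TRIzol, polyA selection, TruSeq) and Ribo-seq (cycloheximide, RNase I) were carried out on liver. Reads were mapped to mm10 with FANSe2, and the authors deposited one file of RPKM values for each library. The authors used edgeR for their lists of mRNA and footprint differences and another test for TE, and edgeR was not run here. Whole reads recovered from the RPKM steps, with the shortest length that fitted each gene (99.98% to 99.99% of values came out whole, within 0.0001 of a read beside the rounding of the deposited value) served for depth, floors, counting intervals (exact, counting error only) and voom.

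Genes averaging 1 RPKM or more within an assay entered the test, which was limma 3.58.1 (R 4.3.3; trend, two-sided, Benjamini-Hochberg) on log2(RPKM + 1), and on the log2 ratio for TE. An exact permutation test of 2 libraries against 2 cannot give a p below 0.333, so none was used. The mRNA and footprint fits, but not that of TE, were scored on simulated data. Named genes were members with an adjusted p under 0.05, members past the study's thresholds, the highest member of each step in mRNA, and a list by role (Acad11, Eci2 and Hsd17b10 were added after their values were seen). The members and lists were chosen with earlier results of these data known. GENCODE M21 (GRCm38, the assembly of mm10) gave coordinates, lengths and overlaps, and RefSeq the promoters of 33 of 38 members. The region and strand setting of the counting are not given in the sources used here. Other settings tried were no filter, a filter of 5 RPKM, 0.1 as pseudocount, a common sum or median, no trend, a replicate block, the study's thresholds, leaving out each library, voom, and crossed numbers or an interaction model for TE.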

Additional observations from a re-analysis of the deposited data

How the results depend on the processing

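In mRNA, 7 members (Acsl5, Acads, Hadha, Echs1, Etfdh, Pcca and Pccb) were higher and Cpt1b and Echdc2 lower in all 12 fits other than that without a filter. That fit tested 24535 genes, called 7 of them higher and 26 lower, and called 0 members in either direction. The study's thresholds called 8 members higher in mRNA, 2 lower in footprints and 4 lower in TE. Leaving out 1 library in turn gave 8 to 15 members higher in mRNA, 0 to 1 lower in footprints and 0 to 11 lower in TE, with the lone library of a group assumed to vary like the others. Over all genes the same fits called 321 to 1344 higher in mRNA, 0 to 700 lower in footprints and 0 to 1280 lower in TE. The median log2 difference of the members then ranged from 0.40 to 0.56 in mRNA, from -0.41 to -0.11 in footprints and from -1.27 to -0.74 in TE, and that of the 14 raised members in footprints from -0.26 to -0.021. At a common sum the medians were -1.07 in footprints and -1.82 in TE over the members, and -0.98 and -2.35 over the 14. At a common median they were 0.69 in mRNA, 0.11 in footprints and -0.69 in TE over the members, and 0.21 and -1.20 over the 14, so the footprint medians reversed. Single mRNA differences near 0 also reversed at a common median, to 0.25 for Acsm3, 0.17 for Acsm5, 0.11 for Acad10, 0.045 for Etfb, 0.10 for Acot2 and 0.21 for Acot13. Without 1 library they ranged from -0.58 to 0.54 for Acsm3, from -0.40 to 0.20 for Acsm5, from -0.08 to 0.27 for Acadm, from -0.48 to 0.16 for Acad10, from -0.55 to 0.10 for Etfb, from -0.43 to 0.093 for Acot2 and from -0.33 to 0.20 for Acot13. Of 529 recomputed differences of single genes, 465 kept their call and sign, 33 lost a call, 15 gained one and 16 reversed. With the replicate block, 15 members were higher and 2 lower in mRNA. Libraries with the same number did not deviate together (correlation -0.104 in mRNA and -0.0138 in footprints), so the numbers were not taken to pair HF with HB libraries. Whether they pair RNA-seq with Ribo-seq libraries was not tested. The cause of these changes was not tested beyond the genes and libraries that each alternative adds or removes. In footprints, 8 members had under 100 reads in all.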
